A study of Mus musculus with 4 samples.

Results

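Transcripts of 9 transcription factors that establish or maintain the trophoblast lineage were examined in mouse embryonic stem cells (ESCs) with and without the kinase gene Pim3. The factors are Cdx2, Eomes, Elf5, Tfap2c, Gata3, Gata2, Tead4, Hand1 and Ets2. They were chosen by name and role, with earlier results of these data known. All 9 have a row among the 55418 genes of the deposited count table. The cells were of the E14 line, with the strain given as 12910la, kept on gelatin in serum with LIF. There were 2 wild-type (WT) libraries and 2 Pim3-/- libraries, each Pim3-/- library coming from 1 clone made by CRISPR/Cas9 with a pair of guides against separate exons of Pim3. Which replicate number belongs to which clone was not stated, so clone and replicate cannot be told apart. The comparison asks whether ESCs that lack Pim3 carry more trophoblast transcripts.

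The trophectoderm is the outer layer of the blastocyst and the source of the placenta, and trophoblast stem cells (TSCs) are derived from it. In the embryo Tead4, the DNA-binding partner of the Hippo cofactors Yap1 and Wwtr1, acts at the start of this lineage, Cdx2 and Gata3 act below it, and Eomes, Elf5, Tfap2c and Ets2 maintain the TSC state. Gata2 and Hand1 act later, in trophoblast giant cells and other placental cell types, and ESCs normally hold most of this circuit silent while they express the pluripotency factors.

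Library totals ran from 22029427 to 25668307 gene counts, so that 3 counts, taken here as the floor for calling a gene present, correspond to 0.112 to 0.157 CPM (counts per megacount of library, with libraries scaled by the trimmed mean of M values, TMM). For Pim3, 4392 and 4953 counts were found in WT, and 4970 and 4804 where the label was Pim3-/-, with a log2 change of -0.27 (SE 0.17) and an adjusted p of 0.251 in edgeR's quasi-likelihood test. A count over the whole gene can keep reads from a transcript that the mutation made non-functional, so this count does not test the labels. For the clones the paper reports sequenced mutations, loss of Pim3 fragments by qPCR and loss of PIM3 protein by western blot. Of 18444 genes tested, 3246 (17.6%) were called higher and 2987 (16.2%) lower in Pim3-/- cells at an adjusted p under 0.05. With libraries scaled by their totals alone the split was 6606 higher and 1092 lower, and the median change of all genes went from 0.07 to 0.52 on the log2 scale. The summed level of 15 pluripotency markers was 8260 and 8340 CPM in Pim3-/- libraries against 11000 and 12100 CPM in WT, a sum carried by abundant genes such as Dppa5a and Pou5f1. On library totals the sums were 9670 and 9720 against 9710 and 10000 CPM, and the median change of the 15 markers lay 0.03 log2 units below that of all genes. The 2 Pim3-/- libraries differed from each other more than the 2 WT libraries did, with a chi-square per degree of freedom of 50.2 against 10.6.

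Of the 9 factors, Eomes, Gata2 and Gata3 were called higher in Pim3-/- cells, each by more than 4-fold, and none was called lower. The background in the same direction was 17.6% of all tested genes, and 8.47% of tested genes were called higher with a change of at least 3-fold. For Eomes, Gata2, Gata3 and Hand1 both Pim3-/- libraries lay above both WT libraries, an arrangement found in 38.3% of tested genes, and for Tfap2c and Ets2 both lay below, as in 34.2%. Tead4, Cdx2 and Elf5 overlapped between the groups. Cdx2 and Elf5 had too few counts for the test, and Gata3 and Hand1 reached the count filter only through the Pim3-/- libraries, so the tested factors are a selection of the list. In bulk RNA, more cells of a trophoblast type and more RNA per cell cannot be told apart.

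**Figure D1:**
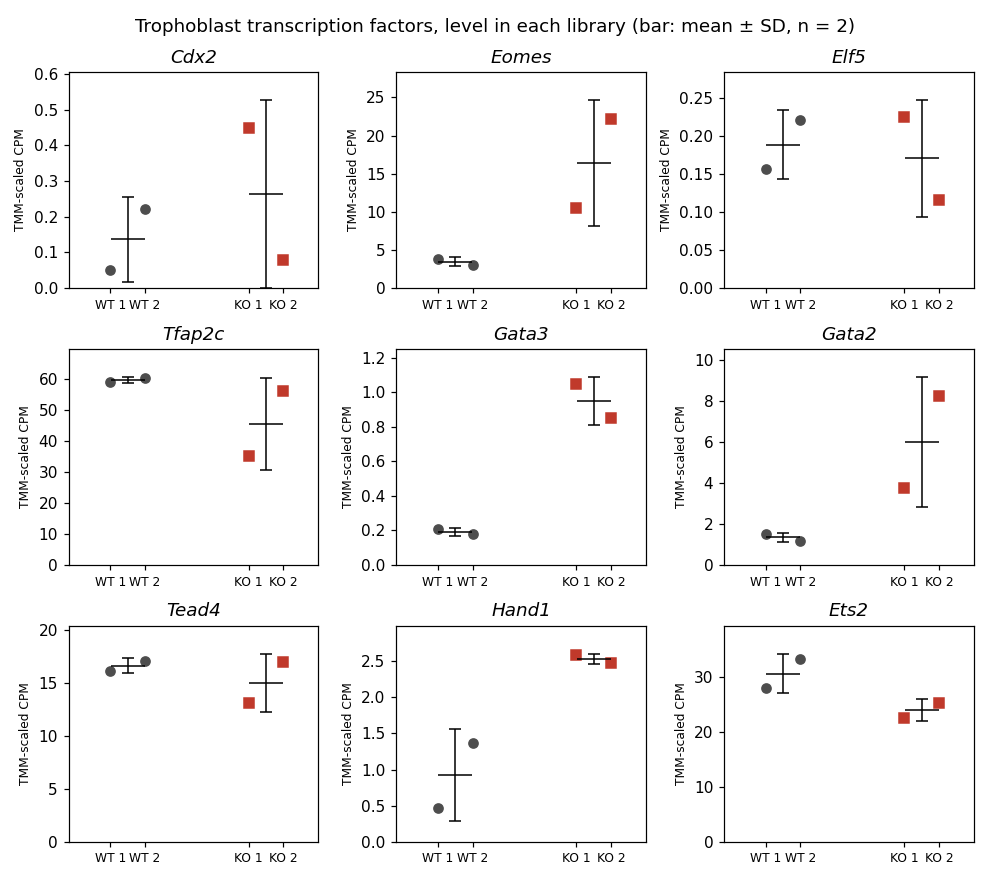
Levels of the 9 trophoblast factors in each library, as TMM-scaled CPM with an axis of its own for each gene. Grey circles are the 2 WT libraries, red squares the 2 Pim3-/- libraries (KO), and black bars the means ± SD. Eomes, Gata2, Gata3 and Hand1 have both red squares above both grey circles, while Tfap2c, Tead4 and Ets2 sit above 10 CPM in all 4 libraries.

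Eomes, the T-box factor that keeps TSCs self-renewing, was the most abundant of the factors that rose. Its level was 3.86 and 3.05 CPM in WT replicates 1 and 2 (74 and 69 counts) and 10.5 and 22.2 CPM in Pim3-/- replicates 1 and 2 (281 and 572 counts). Both Pim3-/- libraries were higher than both WT libraries, and replicate 2 held 2.11 times as much as replicate 1. The means were 3.46 ± 0.578 and 16.4 ± 8.25 CPM (SD, n = 2 each), a 4.74-fold increase with a log2 change of 2.24 (SE 0.39, 95% interval 1.35 to 3.14) and an adjusted p of 0.0072 in edgeR's quasi-likelihood test. Without Pim3-/- replicate 2 the log2 change was 1.60. The Eomes gene lies at chr9:118478212-118486132 on the plus strand of GRCm38, and the antisense gene Gm33460 shares 118 exonic bases with it, 2.84% of its exons. Counts of Gm33460 were 30 and 20 in WT, then 50 and 120 with Pim3 lost (log2 1.42, SE 0.54, adjusted p 0.076), also with more in replicate 2. The sources used here do not state whether counting used strand, so reads over the shared bases cannot be assigned.

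Gata2, a zinc-finger factor of trophoblast giant cells and of blood progenitors, changed by about the same fold from a lower level. WT replicates 1 and 2 held 1.51 and 1.19 CPM (29 and 27 counts) and Pim3-/- replicates 1 and 2 held 3.75 and 8.26 CPM (100 and 213 counts). As with Eomes, the groups did not overlap and Pim3-/- replicate 2 was the higher of its pair, by 2.21 times. The means of 1.35 ± 0.228 and 6.0 ± 3.19 CPM (SD, n = 2 each) gave a log2 change of 2.15 (SE 0.45, 95% interval 1.10 to 3.20, 4.44-fold) with an adjusted p of 0.0125 by edgeR. The call was lost without WT replicate 1 (adjusted p 0.062) and without WT replicate 2 (adjusted p 0.0845), and the log2 change without Pim3-/- replicate 2 was 1.46. Gata2 is at chr6:88193891-88207032 on the plus strand.

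Gata3, which drives trophectoderm genes in parallel with Cdx2, rose from a level close to the floor. There were 4 counts in each WT library (0.209 and 0.177 CPM) and 28 and 22 counts in Pim3-/- replicates 1 and 2 (1.05 and 0.853 CPM). Unlike Eomes and Gata2, Gata3 was at nearly equal levels in the Pim3-/- libraries, with slightly more in replicate 1. The means were 0.193 ± 0.0228 and 0.951 ± 0.138 CPM (SD, n = 2 each), a log2 change of 2.28 (SE 0.55, 95% interval 1.00 to 3.56, 4.85-fold) with an adjusted p of 0.0187 by edgeR. With so few counts the ratio of the pooled counts, scaled for depth, was 4.98 with an exact 95% interval of 2.34 to 12.2, which covers counting error only. The call was lost in DESeq2's Wald test (adjusted p 0.0941) and without either WT library (adjusted p 0.197 and 0.213). Gata3 lies at chr2:9857078-9890034 on the minus strand, where the antisense gene Gm13256 and the same-strand gene 9230102O04Rik share 155 and 77 of its exonic bases and had at most 7 counts in any library.

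The region around the start site is shown for the 3 factors that rose and for Elf5, which stayed near the floor. CpG-rich start regions are a known feature of developmental regulators, and Elf5 is known for its control by DNA methylation in ESCs. Gata2 and Elf5 each have a second annotated start, described below without its sequence. Which start of either gene these cells use, and which Elf5 start is under methylation, was not tested. Each RefSeq window (GRCm38.p6) spans 250 bases before to 50 bases after an annotated start, is written 5′ to 3′ in the direction of the gene, and has every CpG in capitals. They are Eomes chr9:118477939-118478238 (plus), the first Gata2 start chr6:88193641-88193940 (plus), Gata3 chr2:9878551-9878850 (minus) and the first Elf5 start chr2:103411848-103412147 (plus).
Eomes: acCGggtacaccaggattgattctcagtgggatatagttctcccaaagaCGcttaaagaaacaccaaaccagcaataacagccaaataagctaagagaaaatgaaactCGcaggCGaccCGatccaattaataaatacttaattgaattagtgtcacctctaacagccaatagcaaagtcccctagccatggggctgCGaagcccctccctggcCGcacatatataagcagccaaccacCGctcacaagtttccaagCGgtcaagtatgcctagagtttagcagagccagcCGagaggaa
Gata2: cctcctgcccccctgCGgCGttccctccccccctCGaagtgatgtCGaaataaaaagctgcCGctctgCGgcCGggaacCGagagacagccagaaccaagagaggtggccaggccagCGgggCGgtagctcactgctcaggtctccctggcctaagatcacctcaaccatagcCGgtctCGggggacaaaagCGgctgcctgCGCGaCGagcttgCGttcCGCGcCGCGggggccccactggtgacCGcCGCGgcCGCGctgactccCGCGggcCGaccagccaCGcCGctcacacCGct
Gata3: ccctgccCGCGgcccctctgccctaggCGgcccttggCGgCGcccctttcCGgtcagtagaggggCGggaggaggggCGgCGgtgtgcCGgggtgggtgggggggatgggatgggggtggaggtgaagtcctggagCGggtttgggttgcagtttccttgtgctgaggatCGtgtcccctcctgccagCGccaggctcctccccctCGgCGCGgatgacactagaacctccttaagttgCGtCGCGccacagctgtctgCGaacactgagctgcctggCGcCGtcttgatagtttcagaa
Elf5: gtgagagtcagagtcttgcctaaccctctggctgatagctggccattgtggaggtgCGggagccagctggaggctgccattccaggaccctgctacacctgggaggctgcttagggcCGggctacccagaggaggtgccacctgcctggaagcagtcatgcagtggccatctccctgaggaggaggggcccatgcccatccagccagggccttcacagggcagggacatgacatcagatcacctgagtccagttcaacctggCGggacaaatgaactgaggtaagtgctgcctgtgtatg
The Gata2 window held 32 CpGs, more than 90.5% of the 32851 mouse promoter windows of this length, and the Gata3 window held 22, more than 76.9% of them. The Eomes window held 10, more than 56.5%, and the first Elf5 window held 3, more than 23.3%, against a median of 7. Thus the factors that rose did not share one CpG density. Among the other windows, Cdx2 held 18 CpGs, Ets2 held 30, the second Gata2 start held 29 and the second Elf5 start held 10.

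A search of the 8 windows, which cover 6 of the 9 factors, was made on both strands for letters of known binding motifs. GGAATG, the core read by TEAD factors, was found once in the first Elf5 window and once in the second Gata2 window, and in 14.7% of all windows. GCCNNNGGC, the palindrome of AP-2 factors such as Tfap2c, was found once in Cdx2, 3 times in Gata3 and once in the second Gata2 window, and in 16.6% of all windows. The GATA-factor motif spelled GATAA was found once, in the second Elf5 window (25.4% of all windows), and TATAAA in none of the 8 (13.6% of all windows). These matches describe letters in the windows and not sites of binding.

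Hand1, a basic helix-loop-helix factor needed for trophoblast giant cells, was higher in both Pim3-/- libraries but did not pass the test. WT replicates 1 and 2 held 0.470 and 1.37 CPM (9 and 31 counts), and Pim3-/- replicates 1 and 2 held 2.59 and 2.48 CPM (69 and 64 counts). The spread lay within WT, where replicate 2 held 2.91 times as much as replicate 1, whereas the Pim3-/- libraries were close to each other. The log2 change was 1.44 (SE 0.51, 95% interval 0.24 to 2.63) with an adjusted p of 0.0647 by edgeR. Without WT replicate 1 the change was 0.83 and without WT replicate 2 it was 2.33. The call was gained without Pim3-/- replicate 1 (1.38, adjusted p 0.00532) and without Pim3-/- replicate 2 (1.43, adjusted p 0.00317), each with 1 library left in the group. Hand1 lies at chr11:57828705-57832818 on the minus strand.

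Tfap2c, Ets2 and Tead4, the 3 most abundant of the factors in WT, were not called in either direction. Tfap2c (AP-2γ), which TSC derivation needs and which germ cells and naive ESCs also express, had 59.1 and 60.5 CPM in WT and 35.1 and 56.1 CPM in Pim3-/- replicates 1 and 2. Its lower level was mostly that of Pim3-/- replicate 1, since replicate 2 came close to WT. The log2 change was -0.39 (SE 0.23, 95% interval -0.93 to 0.15, adjusted p 0.22 by edgeR), and it was 0.06 with library totals. Without Pim3-/- replicate 2, which leaves 1 library in the group, it was -0.79. Tfap2c lies at chr2:172549593-172558622 on the plus strand.

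Ets2, an ETS factor of TSC self-renewal, had 28.1 and 33.3 CPM in WT and 22.6 and 25.4 CPM in Pim3-/- replicates 1 and 2. Both Pim3-/- libraries were below both WT libraries, but the gap between the groups was smaller than the distance between the WT libraries. The log2 change of -0.36 (SE 0.18, 95% interval -0.77 to 0.06) had an adjusted p of 0.157 by edgeR and was 0.09 with library totals. Without Pim3-/- replicate 2, which leaves 1 library in the group, the log2 change was -0.46. Ets2 lies at chr16:95702075-95721051 on the plus strand.

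Tead4 had 16.1 and 17.1 CPM in WT and 13.1 and 17.0 CPM in Pim3-/- replicates 1 and 2, so the groups overlapped. Its log2 change was -0.14 (SE 0.21, adjusted p 0.623 by edgeR) and 0.31 with library totals. The 95% interval of -0.64 to 0.35 leaves room for a change of either sign. Tead4 lies at chr6:128224288-128300823 on the minus strand.

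Cdx2, the homeobox factor that defines the trophectoderm, was near the floor in every library. There were 1 and 5 counts in WT (0.0522 and 0.221 CPM) and 12 and 2 counts in Pim3-/- replicates 1 and 2 (0.450 and 0.0776 CPM). The only library with more than 5 counts was Pim3-/- replicate 1, while replicate 2 lay between the WT libraries. The ratio of pooled counts was 1.86 with an exact 95% interval of 0.671 to 5.90, covering counting error only, so a change was not detectable at this depth. With no count filter the log2 change was 0.86 (SE 1.10, adjusted p 0.631 by edgeR). Cdx2 lies at chr5:147300805-147307270 on the minus strand.

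Elf5, an ETS factor of the TSC circuit that is methylated and silent in ESCs, was read 3 and 5 times in WT and 6 and 3 times in Pim3-/- cells, or 0.116 to 0.225 CPM over all 4. The groups overlapped, and every library lay within a few counts of the floor. The ratio of pooled counts was 0.896 (exact 95% interval 0.307 to 2.67, counting error only), and with no count filter the log2 change was -0.18 (SE 0.99, adjusted p 0.919 by edgeR). Elf5 lies at chr2:103411688-103450989 on the plus strand.

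Levels were then ordered as CPM per kilobase of exon, which allows genes to be set side by side. In WT, Tfap2c was highest with a mean of 16.3 CPM per kilobase, followed by Ets2 (5.31), Tead4 (4.61), Eomes (0.832), Hand1 (0.460), Gata2 (0.251), Cdx2 (0.0604), Gata3 (0.0485) and Elf5 (0.0321). Hand1 and Gata2 overlapped in that order, as did Cdx2 and Gata3. The WT range of Cdx2 (0.0231 to 0.0977) also spanned that of Elf5 (0.0267 to 0.0376). In Pim3-/- cells Tfap2c still led at 12.4 CPM per kilobase, but Eomes reached 3.94, and its range overlapped that of Ets2 (4.15), which in turn overlapped that of Tead4 (4.17). Below them came Hand1 (1.27) and Gata2 (1.11), which overlapped, then Gata3 (0.239), Cdx2 (0.117) and Elf5 (0.029), of which Cdx2 and Elf5 overlapped. Among the tested genes, Eomes moved from above 26.9% of them in WT to above 52.7% in Pim3-/- cells, on either side of the median gene at 3.18 and 3.51 CPM per kilobase. Gata2 moved from 12.4% to 26.4%, and Gata3 only from 2.84% to 5.89%, so Gata3 stayed among the least abundant transcripts after its rise.

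**Figure D2:**
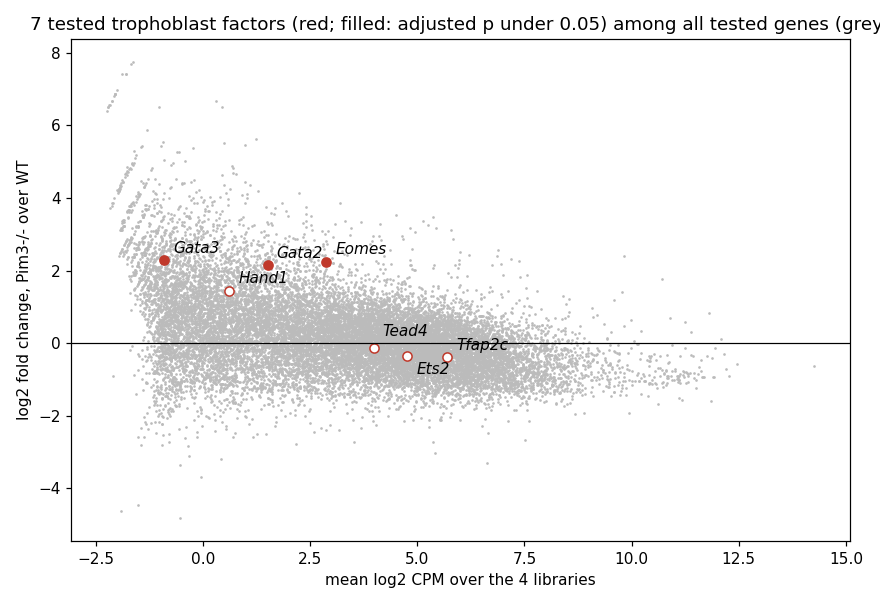
Log2 change (Pim3-/- over WT) against the mean log2 CPM for the tested genes (grey) and the 7 tested trophoblast factors (red). Eomes, Gata2 and Gata3 lie above a log2 change of 2, Hand1 lies at 1.44, and Tfap2c, Ets2 and Tead4 lie at higher abundance and between -0.39 and -0.14.

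Ranked by log2 change from the top among the 18444 tested genes, Gata3 was at place 888, Eomes at 926 and Gata2 at 1017, followed by Hand1 at 2103. Many genes therefore had larger estimates than any trophoblast factor. Tead4, Ets2 and Tfap2c were at places 11033, 12756 and 13022.

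The profiles over the 4 libraries were also set beside those of 125 related genes from lists of trophoblast, Hippo, pluripotency and lineage genes. Likeness was the mean absolute difference in log2 CPM after centring each gene on its own mean. Eomes was nearest to the homeobox gene Cdx1 (0.09), and Gata2 to the keratin gene Krt19 (0.10), both of which had most counts in Pim3-/- replicate 2. Gata3 was nearest to Lama1 (0.16), which encodes a laminin chain of the primitive endoderm, and Hand1 to the receptor gene Pdgfra (0.31). Tfap2c was nearest to Phlda2 (0.07), Tead4 to Mob1a (0.05) and Ets2 to Sparc (0.08). With 4 libraries that share 1 contrast these are descriptions of profile and carry no test.

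**Figure D3:**
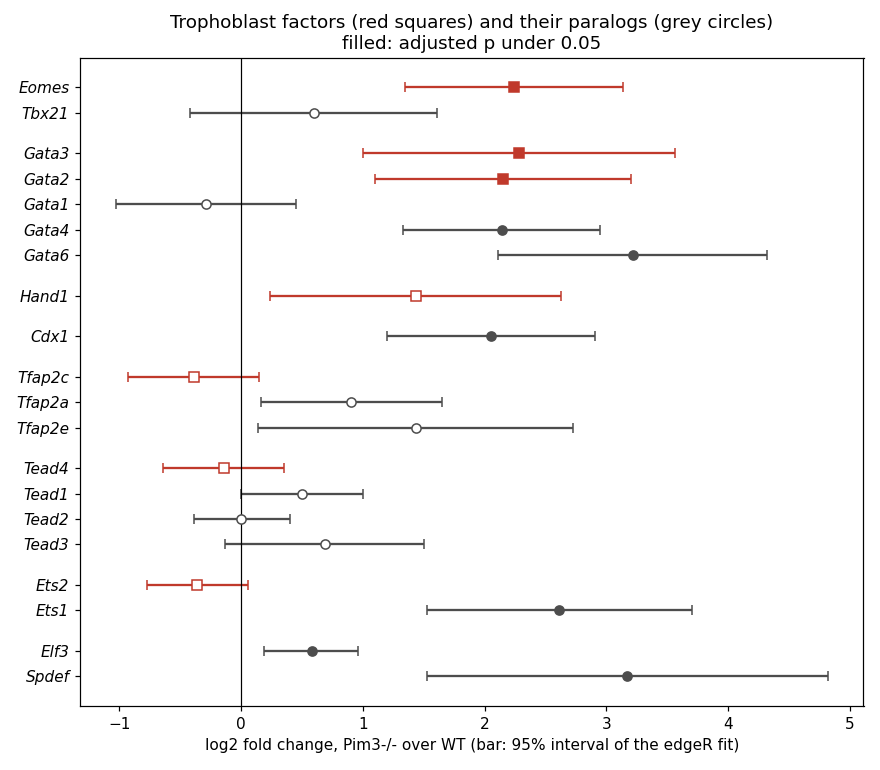
Log2 change (Pim3-/- over WT) with its 95% interval for the trophoblast factors (red squares) and their paralogs (grey circles) that could be tested. Intervals of Eomes, Gata2 and Gata3 lie at or above 1.00, and among the paralogs Gata6, Spdef and Ets1 have estimates of 2.61 to 3.22.

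Close relatives of the 9 factors were examined next, to see whether other members of the same families moved. Among 20 paralogs with a row, 13 could be tested, and Ets1, Spdef and Tfap2e passed the count filter only through the Pim3-/- libraries. Of the 13, 6 were called higher and none lower, beside 17.6% and 16.2% of all tested genes. The median lay 0.83 log2 units above that of all genes. Among the GATA factors, the primitive endoderm regulators Gata4 and Gata6 rose. Counts of Gata4 were 22 and 44 in WT and reached 187 and 173 in Pim3-/- libraries (log2 2.14, SE 0.35, adjusted p 0.00636), and Gata6 had 11 and 19 against 240 and 112 (log2 3.22, SE 0.47, adjusted p 0.00526). The estimate of Gata4 was close to those of Gata2 and Gata3 and that of Gata6 was larger, a difference that was not tested. Gata6 was higher in Pim3-/- replicate 1, the reverse of Eomes and Gata2, and its log2 change was 2.58 without that library. Gata1, the erythroid member, had a log2 change of -0.29 (adjusted p 0.499) that was 0.16 with library totals.

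Cdx1, the intestinal and axial paralog of Cdx2, went from 45 and 48 counts in WT to 173 and 311 in the Pim3-/- pair. Its groups did not overlap, and it rose with a log2 change of 2.05 (SE 0.37, adjusted p 0.00801), whereas Cdx2 had too few counts to be tested. In the ETS family, Ets1 rose from 8 and 12 counts to 98 and 57 (log2 2.61, SE 0.47, adjusted p 0.00801), whereas Ets2 was not called. The epithelial ETS genes Spdef (log2 3.17, SE 0.71, adjusted p 0.0147, with 6 and 1 counts in WT and estimates of 2.23 to 4.96 over the alternatives) and Elf3 (0.58, SE 0.17, adjusted p 0.0326) were also called, and Elf3 lost the call in the Wald test (adjusted p 0.0681). No TEAD paralog was called: Tead1 had a log2 change of 0.50 (adjusted p 0.105), Tead3 of 0.69 (adjusted p 0.163), and Tead2 of 0.00 (adjusted p 0.993) or 0.46 with library totals. Tead1 (0.95) and Tead3 (1.13) were called higher with library totals, and both were called without Pim3-/- replicate 1. Tfap2a (0.90, adjusted p 0.0636), Tfap2e (1.44, adjusted p 0.0809) and the T-box gene Tbx21 (0.60, adjusted p 0.316) were not called either. Tfap2d had no count in any library. Tfap2b and Gata5 had none in WT, with 1 and 0 counts of Tfap2b and 5 and 1 of Gata5 in Pim3-/- replicates 1 and 2. With library totals 10 paralogs were called higher. When at least 10 counts were asked in every library, 5 of 10 were called higher and the median was 0.66 log2 units above that of all genes. Without WT replicate 1 there were 2 paralogs called and without WT replicate 2 there were 3, among which Gata6 was called under every alternative tried.

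Genes of the wider trophoblast programme were summarised by lists. Of 30 other genes used in or marking TSCs and trophectoderm, 29 were tested. Among these, 9 were called higher and 2 lower, beside 17.6% and 16.2% of all tested genes. The median of the list lay 0.19 log2 units above that of all genes, and 16 of the 29 had a positive change. Of its keratin genes, named after their values were seen, Krt19 was called higher (log2 2.03, adjusted p 0.00433 by edgeR). The others, Krt7 (0.55), Krt8 (-0.17) and Krt18 (-0.58, adjusted p 0.0533), were not called. The 3 most abundant of those called were Slc2a3, a glucose transporter (log2 1.77, SE 0.24, adjusted p 0.00457), Aqp3, a water and glycerol channel of the trophectoderm (2.52, SE 0.48, adjusted p 0.00957), and Elf3. Aqp3 had 27.5 and 29.9 CPM in WT and 77.5 and 253 CPM in Pim3-/- replicates 1 and 2, again with most in replicate 2, and its log2 change was 1.42 without that library. The 2 genes called lower were Rhox6 (-1.25, adjusted p 0.0499) and Tfeb (-0.55, adjusted p 0.0476), which were named after their values were seen and were not called with library totals. Without WT replicate 1 or 2 the list held 4 and 5 genes called higher and none lower.

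Of 29 genes of placental differentiation only 13 could be tested. Among these, 7 were called higher and 1 lower, beside 17.6% and 16.2% of all tested genes. The median of the 13 lay 1.06 log2 units above that of all genes. Some of them, such as Flt1 and Syna, passed the count filter only through the Pim3-/- libraries, and with at least 10 counts asked in every library 4 of 10 were called higher, none lower, and the median was 0.61. Those called with the highest levels were the imprinted gene Peg10 (log2 1.24, SE 0.23, adjusted p 0.00839), Bhlhe40 (3.25, SE 0.47, adjusted p 0.00514), a basic helix-loop-helix factor that also responds to hypoxia, and Ascl2 (1.47, SE 0.27, adjusted p 0.00887), a spongiotrophoblast regulator. Among genes of mature trophoblast, 11 were without counts in all 4 libraries: Synb, Tpbpa, Prl3d1, Prl3d2, Prl3d3, Prl3b1, Prl2c2, Prl4a1, Psg21, Ctsq and Ctsj. Others of the list went the other way, and are named after their values were seen. The syncytin gene Syna went from 3 and 6 counts in WT to 32 and 36 in Pim3-/- cells (log2 2.57, adjusted p 0.0122, not called without either WT library), and the homeobox gene Dlx3 had 7 and 16 against 335 and 196 (4.20, adjusted p 0.00304). Counts of the receptor gene Flt1 were 2 and 1 against 79 and 48 (adjusted p 0.00425), and those of Gcm1, a syncytiotrophoblast regulator, were 2 and 0 against 11 and 5, too low to test. Reads of the prolactin and cathepsin genes may be lost to near-identical copies where the authors' counting dropped reads with several matches, which the sources used here do not state. Bhlhe40 was also higher in Pim3-/- replicate 2, without which its log2 change was 2.23. The gene called lower was Rtl1 (-1.10, adjusted p 0.0489), an imprinted gene of the placenta, named after its value was seen, and it was not called with library totals, with at least 10 counts asked in every library, in the Wald test (adjusted p 0.0636) or without either WT library. Without WT replicate 1 or 2 there were 3 and 4 genes of this list called higher.

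Hippo pathway genes and TEAD cofactors, which act with Tead4, were examined as well. Of 17 genes 16 were tested, 4 were called higher and none lower, with a median 0.22 above that of all genes, beside 17.6% of all tested genes called higher. With library totals 9 of the 16 were called higher. Amotl1 (log2 1.11, SE 0.22, adjusted p 0.0104), a scaffold that holds Yap1 out of the nucleus, Sav1 (0.60, SE 0.17, adjusted p 0.0305), an adaptor of the Hippo kinases, and the TEAD target gene Ccn2 (1.28, SE 0.37, adjusted p 0.0339) were the most abundant of these, and the remaining one was Amot (2.07, adjusted p 0.0188), named after its value was seen. Ccn2 had a log2 change of 0.51 without Pim3-/- replicate 2. None of the 16 was called when either WT library was left out, and Sav1 was not called in the Wald test (adjusted p 0.0858).

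Genes that hold trophoblast genes silent in ESCs, among them pluripotency factors, DNA methyltransferases and Polycomb subunits, form a further list. All 20 were tested, 5 were called lower and 1, Sall4, higher (log2 0.84, adjusted p 0.0116, named after its value was seen), with a median 0.27 log2 units below that of all genes, beside 16.2% of all tested genes called lower. Pou5f1, which encodes Oct4 and represses Cdx2, fell from 2360 and 2140 CPM to 1100 and 957 CPM (log2 -1.12, SE 0.22, adjusted p 0.00993). Nanog (-0.90, SE 0.20, adjusted p 0.0155) and Hdac1, a histone deacetylase (-0.98, SE 0.20, adjusted p 0.0115), fell as well, though neither was called with library totals, where the list held 6 genes called higher and 2 lower. The paper instead reports higher Nanog, by qPCR and western blot, and undisturbed Oct4 expression in Pim3-/- ESCs. The reason for this difference was not tested. The other genes called lower, also named after their values were seen, were the de novo methyltransferase gene Dnmt3b (-1.30, adjusted p 0.00636) and the Polycomb gene Eed (-0.91, adjusted p 0.00882). Without WT replicate 1 or 2 the list held 1 gene called lower and none higher.

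**Figure D4:**
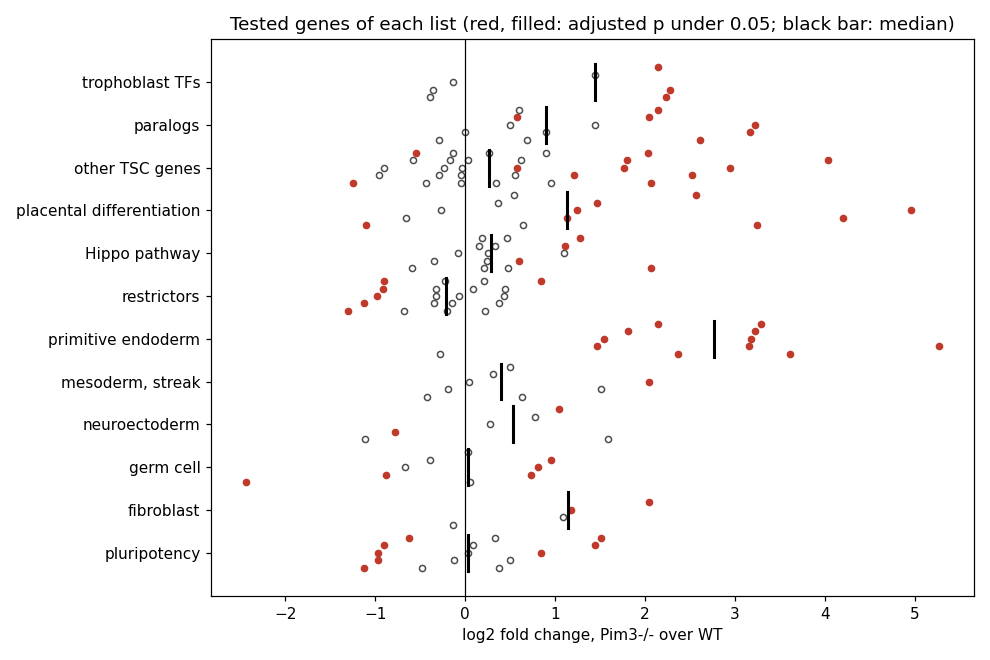
Log2 change (Pim3-/- over WT) of each tested gene in each gene list, in red where the adjusted p was under 0.05, with a black bar at the list's median. Primitive endoderm has 11 of 12 genes called higher, and the list of restrictors in ESCs has 5 of 20 called lower.

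Eomes, Gata2, Gata3 and Hand1 are also expressed outside trophoblast, so markers of other cell types are given beside them. In the primitive endoderm list 11 of 12 tested genes were called higher and none lower, beside 17.6% and 16.2% of all tested genes. The median lay 2.70 log2 units above that of all genes, and summed levels were 449 and 465 CPM in WT against 748 and 727 CPM. Sparc, the tested gene not called and named after its values were seen, made up most of the WT sums. Its level was 359 and 358 CPM in WT against 276 and 314 CPM in Pim3-/- libraries (log2 -0.28, adjusted p 0.259 by edgeR). The list included Lamb1 (log2 1.47, adjusted p 0.00553), Col4a1 (3.18, adjusted p 0.00129) and Lama1 (1.81, adjusted p 0.00273), which encode basement membrane proteins. Foxa2 and Ttr had no count in WT, with 5 and 7 counts of Foxa2 and 1 and 2 of Ttr in Pim3-/- libraries. Afp, named after its values were seen, had 5 and 2 counts in WT against 3 and 2. These 3 genes were too low to test. With at least 10 counts asked in every library 8 of 9 were called and the median was 2.16, and without WT replicate 1 there were 6 genes called higher. Mesoderm and primitive streak markers, among which Eomes would be counted, had 1 of 8 tested genes called, the receptor gene Pdgfrb (2.05, adjusted p 0.00338), and summed levels of 13.6 and 15.1 CPM in WT against 36.7 and 33.2 CPM. Without Pdgfrb the sums were 8.62 and 8.48 CPM in WT against 13.1 and 8.81 CPM. The streak markers T (6 and 9 counts in WT, 14 and 5 in Pim3-/-) and Mixl1 (7 and 7, against 8 and 6) stayed too low to test. The part of either cell type in the levels of Eomes, Gata2, Gata3 and Hand1 was not tested.

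**Figure D5:**
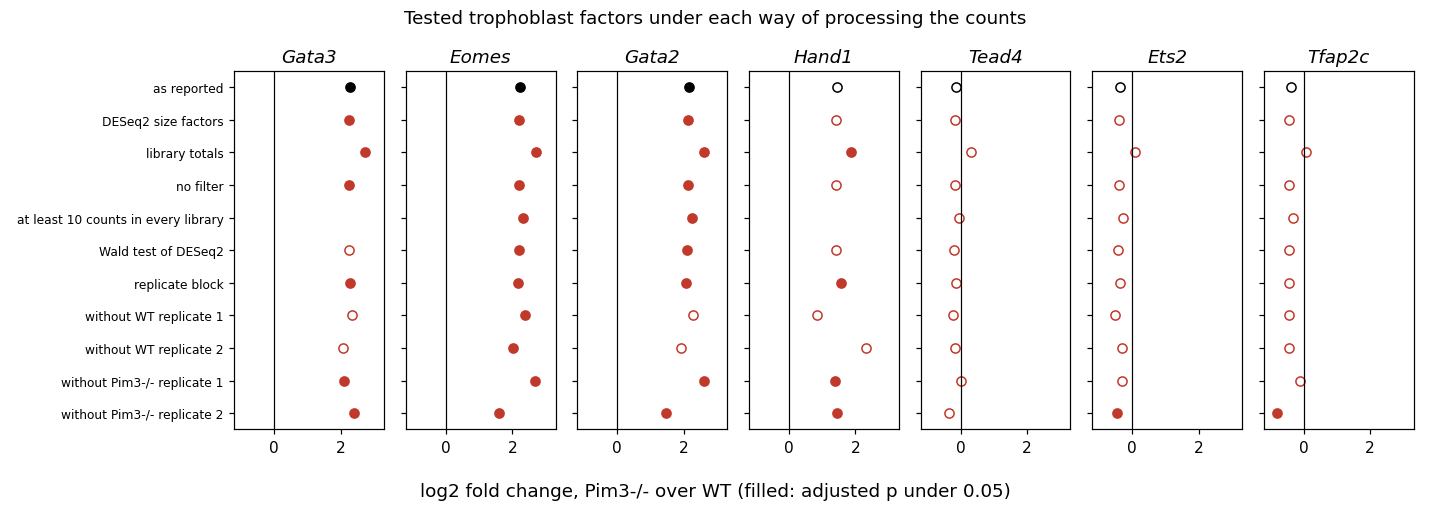
Log2 change (Pim3-/- over WT) of the 7 tested trophoblast factors under each way of processing, in black as reported and in red for the alternatives, with filled symbols where the adjusted p was under 0.05. Eomes is filled throughout, Gata2 and Gata3 lose the call when a WT library is left out, and Tfap2c, Tead4 and Ets2 stay within 1 log2 unit of 0.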

How the data were processed

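RNA-seq of 2 wild-type and 2 Pim3-/- ESC libraries was analysed from 1 deposited table of raw counts per gene. The authors trimmed and aligned the reads and counted them over genes: their methods name Cutadapt and Hisat2 on mm10 with Ensembl genes, whereas the submitters' processing notes name Trim Galore, STAR and featureCounts on GRCm38, with no versions. Strand use and the handling of reads with several matches are not given in the sources used here. A deposited table of repeat elements was not used.

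Genes were kept with edgeR's filterByExpr (minimum count 10, minimum total 15), scaled by TMM and tested with the quasi-likelihood test of edgeR 4.0.16 (limma 3.58.1, R 4.3.3), Pim3-/- against WT, with Benjamini-Hochberg adjustment over the 18444 tested genes and calls at an adjusted p under 0.05. The authors used a Wald test; DESeq2 1.42.0 served as an alternative. On simulated data of 18008 genes the fit recovered 86% of 200 genes given a log2 change of 2 in either direction. Of its calls there, 7.03% were false, against the cut-off of 0.05. The simulation gave both groups the same spread and changed far fewer genes than were called here. These rates may therefore not hold for the real libraries. An exact permutation test of 2 against 2 libraries cannot go below p = 0.333 and was not used. Intervals on count ratios are exact binomial. Plots used matplotlib 3.10.9 in Python 3.11.15. Exon lengths came from GENCODE vM21 (GRCm38). The factors and gene lists were chosen with earlier results of these data known. All 9 factors and every testable paralog are named. From other lists, the 3 called genes with the highest mean CPM and defining markers without counts are named, and a gene named outside that rule is marked in the text, apart from the streak markers T and Mixl1. Columns were matched to the 4 libraries by title, and no pair was a duplicate. The authors' methods call the WT libraries 2 biological samples, without saying whether these were separate cultures. The p-values measure only the spread between these libraries, an unknown part of which may be technical.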

Additional observations from a re-analysis of the deposited data

How the results depend on the processing

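Eomes was called higher under all 10 alternatives, with log2 changes of 1.60 to 2.70. With library totals in place of TMM, the signs of Tfap2c (0.06), Tead4 (0.31) and Ets2 (0.09) turned, none of them called, and Hand1 was called higher (1.87, adjusted p 0.0219). Leaving out 1 library at a time, which leaves a group of 1 assumed to vary like the other, gave 1 to 4 factors called higher, 1 to 3 called higher at 3-fold, 0 to 2 called lower, and -0.36 to 0.01 for Tead4. The median of the tested factors lay 1.37 above that of all genes, 0.79 to 1.84 with 1 library left out, and -0.12 when at least 10 counts were asked in every library, which leaves 5 factors and drops those low in WT. Over all genes, calls higher and lower were 3246 and 2987 and became 6606 and 1092 with library totals, 402 and 373 without WT replicate 1, 585 and 1061 without WT replicate 2, 5393 and 5255 without Pim3-/- replicate 1, and 4883 and 4846 without Pim3-/- replicate 2.

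With the replicate number as a block, 4 factors were called higher, 3 of them at 3-fold or more, and none lower, since Hand1 passed (1.55, adjusted p 0.0348); the median was 1.49, and 3403 genes were called higher and 3272 lower. Deviations of same-numbered libraries correlated at 0.0196. With so few libraries this value cannot settle whether the numbers pair them. Depth limits Cdx2 and Elf5, which had at most 12 counts.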

Other observations

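Other lineages gave mixed counts, to be set beside 17.6% of all tested genes called higher and 16.2% called lower. Of 9 germ cell markers, 3 were called higher and 2 lower. Kit (log2 0.81, adjusted p 0.0114 by edgeR) and Ddx4 (0.73, adjusted p 0.0331) were higher and Dnd1 (-0.88, adjusted p 0.0249) lower, and Dazl (0.95) and Dppa3 (-2.44), named after their values were seen, were the others. Of 6 tested neuroectoderm markers, Zic5 was called higher (1.04, adjusted p 0.0274) and Tubb3 lower (-0.78, adjusted p 0.028). Of 4 tested fibroblast markers, Pdgfrb and Twist1 (1.18, adjusted p 0.0389) were called higher, while Prrx1 and Lum had no count in any library. Of 15 pluripotency markers, 3 were called higher and 5 lower, and those beside Pou5f1, Nanog, Sall4 and Dppa5a (-0.97, adjusted p 0.02) were, named after their values were seen, Klf4 (1.44), Tbx3 (1.51), Fbxo15 (-0.63) and Utf1 (-0.97). The list had 6 higher and 1 lower with library totals. Dnd1, Tubb3 and Dppa5a were not called with library totals. Of Kit, Ddx4, Dnd1, Zic5, Tubb3, Pdgfrb, Twist1 and Dppa5a, Pdgfrb alone was called when either WT library was left out.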
